A study of Mus musculus with 23 samples.

Results

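The 10 enzymes of cholesterol synthesis, Hmgcs1, Pmvk, Mvd, Idi1, Fdps, Sqle, Lss, Cyp51, Msmo1 and Sc5d, were followed step by step along the pathway in mouse microglia. They were chosen by name, and all 10 were found with 1 probe set each among the 22203 probe sets of the array, of which 19572 carried a gene symbol, for 19505 genes in all. Microglia from cortex and hippocampus had been sorted as CD45+ CD11b+ cells, and 23 samples in 6 groups were measured.

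The first group was Clec7a+ microglia of APPswlnd mice at 12 months (4 samples, here gated APP), and the second was Clec7a+ microglia of P301S (PS19) mice at 9 months (4 samples, here gated TAU), whose titles give 12 months instead. Both were set against microglia of C57BL6 mice at 12 months (4 samples, aged WT), so gated TAU was compared with older mice. The young groups were APPswlnd (3 samples), P301S (PS19) (4 samples) and C57BL6 mice (4 samples), all at 3 months and described in the labels as before pathology in both transgenic strains. APPswlnd mice are a model of Abeta pathology, and PS19 mice express mutant human tau from a prion promoter. The promoter of the APP transgene was not given in the labels. Clec7a, a pattern recognition receptor, was used to sort active microglia in the 2 older transgenic groups, and the labels name no such gate for the other groups. Strain, pathology and gate therefore differed together in every comparison of a gated group with WT, and age differed as well in the comparisons with young mice and in those of gated TAU with aged WT, so that their effects cannot be told apart. The titles number biological replicates without saying whether each came from a separate animal, and sex was not given, so p-values measure only the spread between these samples.

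Cholesterol is made from acetyl-CoA. Hmgcs1 acts on the way to mevalonate, kinases and a decarboxylase turn it into isoprenoid units, Fdps joins these into farnesyl diphosphate, squalene synthase and Sqle lead to squalene epoxide, Lss closes the ring to lanosterol, and Cyp51, Msmo1, Sc5d and others trim lanosterol to cholesterol. Transcription of the whole set is driven by SREBP2, encoded by Srebf2, which is released from the endoplasmic reticulum when sterols run low and binds sterol regulatory elements near CCAAT and GC boxes. In the adult brain, astrocytes and oligodendrocytes are known as the main makers of cholesterol, and microglia take up and export much of theirs.

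Promoter windows of 250 bases before to 50 bases after the gene start, from RefSeq on GRCm38.p6, were matched by symbol for 8 of the 10 enzymes. They are shown for 1 early enzyme of the mevalonate stage, for Mvd, which moved opposite to the other called enzymes, and for the 3 late sterol enzymes Cyp51, Msmo1 and Sc5d. Capitals mark the CCAAT box (CCAAT), the GC box (GGGCGG) and the sterol regulatory element core (TCACNCCAC), on either strand, and no matches overlapped.
Hmgcs1, chr13:119690101-119690400, strand plus: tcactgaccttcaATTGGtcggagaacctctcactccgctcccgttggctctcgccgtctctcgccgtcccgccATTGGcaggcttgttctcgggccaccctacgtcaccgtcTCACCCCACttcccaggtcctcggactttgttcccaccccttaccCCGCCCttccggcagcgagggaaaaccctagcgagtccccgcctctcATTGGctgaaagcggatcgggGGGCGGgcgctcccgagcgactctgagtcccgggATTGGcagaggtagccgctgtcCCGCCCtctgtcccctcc
Mvd, chr8:122443373-122443672, strand minus: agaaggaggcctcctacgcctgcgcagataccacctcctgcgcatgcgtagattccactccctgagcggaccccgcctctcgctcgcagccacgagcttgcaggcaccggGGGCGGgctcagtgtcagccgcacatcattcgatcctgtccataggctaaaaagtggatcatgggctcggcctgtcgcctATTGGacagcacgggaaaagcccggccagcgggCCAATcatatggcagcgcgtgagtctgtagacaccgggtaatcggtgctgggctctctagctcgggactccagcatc
Cyp51, chr5:4104648-4104947, strand minus: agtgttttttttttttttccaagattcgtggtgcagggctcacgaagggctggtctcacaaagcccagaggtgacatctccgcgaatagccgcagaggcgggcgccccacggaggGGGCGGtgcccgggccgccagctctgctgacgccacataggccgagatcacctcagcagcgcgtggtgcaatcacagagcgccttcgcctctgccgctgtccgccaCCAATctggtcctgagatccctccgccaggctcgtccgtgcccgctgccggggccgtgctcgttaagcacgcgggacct
Msmo1, chr8:64733529-64733828, strand minus: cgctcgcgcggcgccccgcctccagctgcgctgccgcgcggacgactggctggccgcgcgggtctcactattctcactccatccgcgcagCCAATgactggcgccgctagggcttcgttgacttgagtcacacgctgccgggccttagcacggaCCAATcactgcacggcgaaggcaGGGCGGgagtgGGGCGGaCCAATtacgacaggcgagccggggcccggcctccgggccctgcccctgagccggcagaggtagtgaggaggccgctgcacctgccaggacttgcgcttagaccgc
Sc5d, chr9:42264251-42264550, strand minus: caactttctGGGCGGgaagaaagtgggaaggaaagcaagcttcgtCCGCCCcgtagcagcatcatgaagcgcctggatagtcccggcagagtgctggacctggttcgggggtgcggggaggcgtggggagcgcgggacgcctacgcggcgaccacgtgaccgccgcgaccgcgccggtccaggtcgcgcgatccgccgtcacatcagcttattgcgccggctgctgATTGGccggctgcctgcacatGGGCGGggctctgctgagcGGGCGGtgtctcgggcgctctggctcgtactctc
A CCAAT box was found in 8 of the 8 enzymes with a window, against 41.1% of 27025 genes, and a GGGCGG box in 7 of 8, against 38.2%. TCACNCCAC was found in 1 of 8, Hmgcs1, against 1.44% of all genes. Mvd, the enzyme that was lower in both gated groups, held 2 CCAAT boxes and 1 GGGCGG box, and Sc5d held 1 CCAAT box and 4 GGGCGG boxes. These matches describe the letters only.

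Values are log2 signals of the deposited RMA table, which ran from 3.12 to 19.85, and each difference is on that log2 scale. Differences were tested with limma across all probe sets, and a call means a Benjamini-Hochberg adjusted p under 0.05. A background level was set in each group at the 95th percentile of 1449 odorant, vomeronasal and taste receptor probe sets, and lay at 7.74 in gated APP, 7.83 in gated TAU, 8.12 in aged WT and 7.73 to 8.0 in the young groups. Where the lower group was at or under background, the fold is given as a bound, the brighter mean over that group's background level. The group means of Hmgcs1, Idi1, Sqle and Lss were at background in all 6 groups, those of Mvd and Sc5d were above it in all 6, and those of Pmvk, Fdps, Cyp51 and Msmo1 were above it in gated APP alone. Above the background of their own array in at least 3 samples were 6 of the 10 enzymes, Pmvk, Mvd, Fdps, Cyp51, Msmo1 and Sc5d. Since 4 of these passed through the group in which they were high, no count over the 6 was used.

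The first principal component (30.28% of variance) separated the 8 gated from the 15 other samples. On the second (20.62%) replicates 2 and 4 of aged WT stood apart, and results that change without both are given with their value. All 9 measured microglia markers were above background in every group. Called lower than in aged WT were 6 of the 9 in gated APP and 7 in gated TAU, against 3.48% and 3.67% of all probe sets. The mean log2 signal of the Y-linked genes ran from 4.16 to 7.13 in gated APP, 4.50 to 6.78 in gated TAU, 6.06 to 7.31 in aged WT, 4.14 to 4.62 in young APP, 4.0 to 6.88 in young TAU and 6.98 to 7.46 in young WT. All young APP samples thus lay below all young WT and aged WT samples, and sex may have differed between these groups. The part of the Y-linked mean in the results is given only through a fit that adjusts for it.

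In gated APP microglia, 5 of the 10 enzymes were higher than in aged WT and 1 was lower. Pmvk, Fdps, Cyp51, Msmo1 and Sc5d rose, by 1.47 to 1.70 log2 units, and Mvd fell. Among all probe sets 5.6% were called higher and 3.48% lower in this comparison. The median difference was 1.10 over the 10 enzymes and -0.06 over all probe sets. All 4 gated APP samples were above all 4 aged WT samples for 5 of the 10 enzymes and below them for 1, against 6.72% and 4.83% of all probe sets. In gated TAU microglia, 1 enzyme, Pmvk, was higher than in aged WT and 1, Mvd, was lower, against 5.09% and 3.67% of all probe sets in these directions, and the median difference was -0.09. All 4 gated TAU samples lay above all 4 aged WT samples for 1 of the 10 and below them for 2, against 6.38% and 5.55% of all probe sets. Both comparisons share the aged WT samples. In bulk samples such as these, fewer cells of a type and less RNA per cell cannot be told apart.

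**Figure D1:**
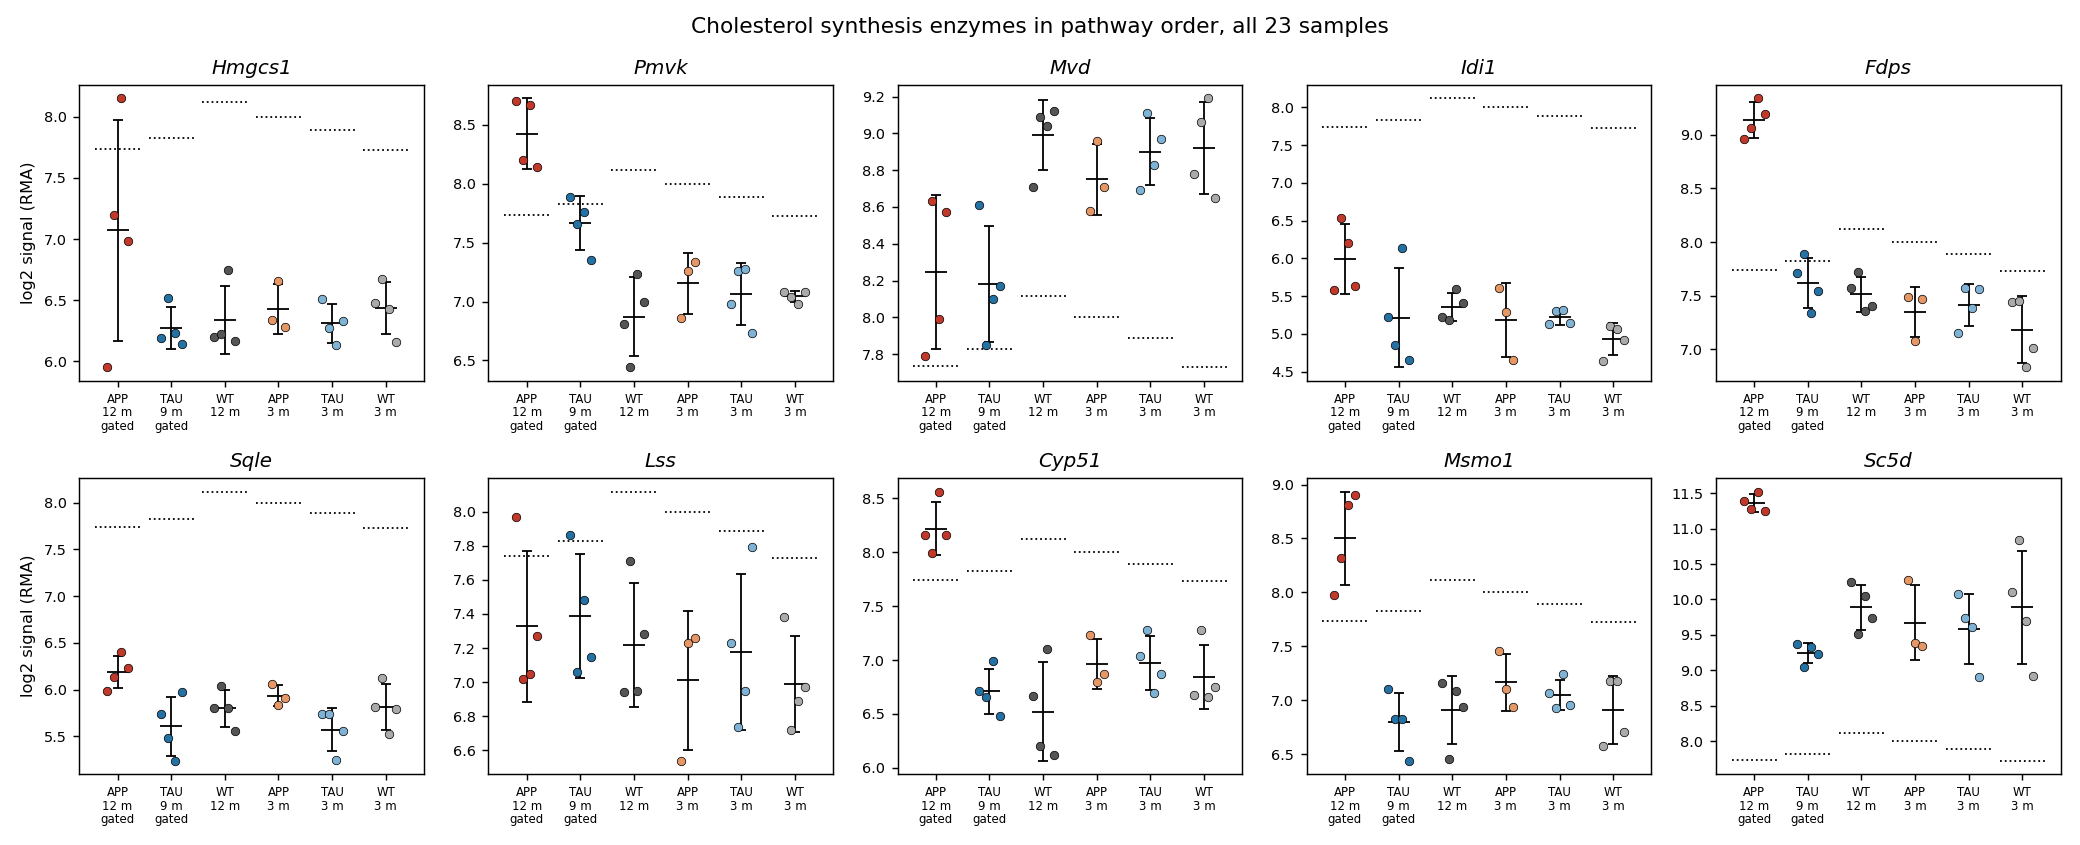
Log2 RMA signal (y axis) of the 10 enzymes in every sample, 1 panel per enzyme in pathway order, with the groups along the x axis. Points are samples, bars the mean and SD of the group, and dotted lines the background level of the group. Gated APP samples lie above all others for Pmvk, Fdps, Cyp51, Msmo1 and Sc5d, and the gated samples lie low for Mvd. How many of all probe sets do so was not counted.

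Hmgcs1 encodes the cytosolic synthase that makes HMG-CoA. Its log2 signals were 5.95, 7.20, 8.15 and 6.98 in gated APP, 6.19, 6.52, 6.23 and 6.14 in gated TAU and 6.20, 6.22, 6.75 and 6.17 in aged WT. The gated APP samples spread widely, with 3 of 4 above every aged WT sample and replicate 1 below them all. The difference from aged WT was 0.73 (95% interval 0.15 to 1.32) with a limma adjusted p of 0.118, and was not called. Without replicate 1 of gated APP it was 1.11 with an adjusted p of 0.00258, though the group means stayed at background. Young samples lay between 6.13 and 6.67.

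Pmvk encodes phosphomevalonate kinase, which adds the second phosphate to mevalonate. Its log2 signals were 8.70, 8.20, 8.67 and 8.14 in gated APP, 7.89, 7.66, 7.76 and 7.35 in gated TAU and 6.81, 6.44, 7.23 and 7.0 in aged WT. All 8 gated samples (7.35 to 8.70) were above all 15 ungated samples (6.44 to 7.34). The lowest gated sample, in gated TAU, was only just above the highest ungated sample, in young APP, and both were under background. The share of all probe sets with this pattern was not counted. In gated APP the mean was 8.43 ± 0.30, against 6.87 ± 0.33 in aged WT (SD, n = 4 each), a difference of 1.56 ± 0.19 (SE, limma adjusted p = 3.87e-06) and a fold of at least 1.24. In gated TAU the mean was 7.67 ± 0.23, a difference from aged WT of 0.80 ± 0.19 (limma adjusted p = 0.00889) between means that were both at background, so that no fold is given. That call was lost without replicates 2 and 4 of aged WT (0.65, adjusted p = 0.102). Between gated APP and gated TAU the difference was 0.76 (95% interval 0.37 to 1.15), with no overlap of the samples, but it missed the threshold in limma (adjusted p = 0.0551).

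Mvd encodes the decarboxylase that makes isopentenyl diphosphate from mevalonate diphosphate. Its log2 signals were 7.79, 8.63, 7.99 and 8.57 in gated APP, 8.61, 7.85, 8.10 and 8.17 in gated TAU and 8.71, 9.09, 9.04 and 9.12 in aged WT. Each gated group lay below every aged WT sample, and 6 of the 8 gated samples were below the lowest of all 15 ungated samples, 8.58. Mvd fell by 0.75 ± 0.20 in gated APP relative to aged WT, 1.68-fold lower (limma adjusted p = 0.0183), and by 0.81 ± 0.20 in gated TAU (adjusted p = 0.012). The gated groups differed from each other by 0.06 (95% interval -0.35 to 0.48). The call in gated APP was lost when any of 4 samples was left out, at adjusted p = 0.0845 without replicate 1 and 0.0734 without replicate 3 of gated APP, and 0.0551 without replicate 2 and 0.0573 without replicate 4 of aged WT. The call in gated TAU was lost without its own replicate 2 (0.0501), and without replicates 2 and 4 of aged WT together the values were -0.63 (0.185) in gated APP and -0.69 (0.124) in gated TAU.

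Idi1 encodes the isomerase that interconverts the isoprenoid units. Log2 signals of this probe set were 5.58, 6.54, 6.20 and 5.64 in gated APP, 5.23, 4.85, 6.14 and 4.65 in gated TAU and 5.22, 5.19, 5.60 and 5.41 in aged WT. The groups overlapped and all lay at background, with a difference of 0.64 between gated APP and aged WT that was not called (limma adjusted p = 0.162).

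Fdps encodes farnesyl diphosphate synthase, at the branch from which sterols, prenylated proteins and other isoprenoids are made. Samples of Fdps had log2 signals of 8.96, 9.06, 9.34 and 9.19 in gated APP, 7.71, 7.89, 7.34 and 7.54 in gated TAU and 7.57, 7.72, 7.36 and 7.40 in aged WT. No other sample of the series reached the lowest gated APP value. The mean of 9.14 ± 0.16 in gated APP, against 7.51 ± 0.17 in aged WT (SD, n = 4 each), gave a difference of 1.62 ± 0.17 (SE, limma adjusted p = 5.84e-07), at least 2.03-fold. The mean of gated TAU was 7.62 ± 0.24, 0.11 above aged WT (95% interval -0.25 to 0.47, adjusted p = 0.768).

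Sqle encodes squalene epoxidase and Lss the lanosterol synthase that closes the sterol rings. Sqle had log2 signals of 5.99, 6.13, 6.40 and 6.23 in gated APP, 5.74, 5.48, 5.24 and 5.97 in gated TAU and 5.80, 6.04, 5.80 and 5.56 in aged WT. Lss had 7.97, 7.02, 7.05 and 7.27 in gated APP, 7.86, 7.06, 7.48 and 7.15 in gated TAU and 6.94, 7.71, 6.95 and 7.28 in aged WT. Both were at background throughout and neither was called. The difference of gated APP from aged WT was 0.39 (95% interval 0.03 to 0.75, limma adjusted p = 0.196) for Sqle and 0.11 (-0.44 to 0.65, adjusted p = 0.855) for Lss. Sqle was higher in all 4 gated APP than in all 4 gated TAU samples, by 0.58 (adjusted p = 0.161).

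Cyp51 encodes the cytochrome P450 that takes the first methyl group off lanosterol. The probe set had log2 signals of 8.16, 7.99, 8.56 and 8.16 in gated APP, 6.71, 6.66, 6.99 and 6.48 in gated TAU and 6.67, 6.20, 7.10 and 6.12 in aged WT. The gated APP samples stood clear of every other sample, of which the highest, in young WT and young TAU, was 7.28. The mean was 8.22 ± 0.24 in gated APP, against 6.52 ± 0.46 in aged WT (SD, n = 4 each), a difference of 1.70 ± 0.21 (SE, limma adjusted p = 5.31e-06) and at least 1.07-fold. In gated TAU the mean of 6.71 ± 0.21 was 0.19 above aged WT (95% interval -0.25 to 0.62, adjusted p = 0.654).

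Msmo1 encodes the methylsterol monooxygenase that starts the removal of the next methyl groups. Signals on the log2 scale were 7.98, 8.32, 8.81 and 8.90 in gated APP, 7.10, 6.83, 6.83 and 6.44 in gated TAU and 7.16, 6.46, 7.09 and 6.94 in aged WT. Again no other sample of the series came up to gated APP. The mean was 8.50 ± 0.43 in gated APP, against 6.91 ± 0.32 in aged WT (SD, n = 4 each), a difference of 1.59 ± 0.22 (SE, limma adjusted p = 1.72e-05) and at least 1.31-fold. In gated TAU the mean was 6.80 ± 0.27, with a difference from aged WT of -0.11 (95% interval -0.56 to 0.33, adjusted p = 0.811).

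Sc5d encodes the desaturase that sets a double bond in the sterol ring, a late step. Its log2 signals were 11.39, 11.28, 11.52 and 11.25 in gated APP, 9.37, 9.05, 9.33 and 9.23 in gated TAU and 10.24, 9.52, 10.05 and 9.74 in aged WT. Gated APP was highest and gated TAU lowest of the 3 groups, without overlap. The mean was 11.36 ± 0.12 in gated APP, against 9.89 ± 0.32 in aged WT (SD, n = 4 each), a difference of 1.47 ± 0.30 (SE, limma adjusted p = 0.00218), or 2.78-fold. In gated TAU it was 9.24 ± 0.14, a difference from aged WT of -0.64 (95% interval -1.27 to -0.01) that was not called (adjusted p = 0.218). Without replicates 2 and 4 of aged WT the gated APP difference was 1.22 and no longer called (adjusted p = 0.0626).

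The gated groups were then set against each other. In gated APP, 4 of the 10 enzymes were higher than in gated TAU and none was lower in limma, where 0.626% of all probe sets were called higher and 0.302% lower. At an unadjusted p under 0.05, 8 of the 10 were higher and 0 lower, where 2039 of the 22203 probe sets passed in either direction. Fdps differed by 1.52 (limma adjusted p = 1.15e-05, at least 2.48-fold), Cyp51 by 1.51 (0.000185, at least 1.31-fold), Msmo1 by 1.70 (4.7e-05, at least 1.60-fold) and Sc5d by 2.11 (0.000274, 4.33-fold). The median over the 10 was 0.79, and for 6 of the 10 every gated APP sample was above every gated TAU sample, and for 0 below, against 2.56% and 2.14% of all probe sets. Age (12 against 9 months) and strain differed together here, while both groups were Clec7a+.

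**Figure D2:**
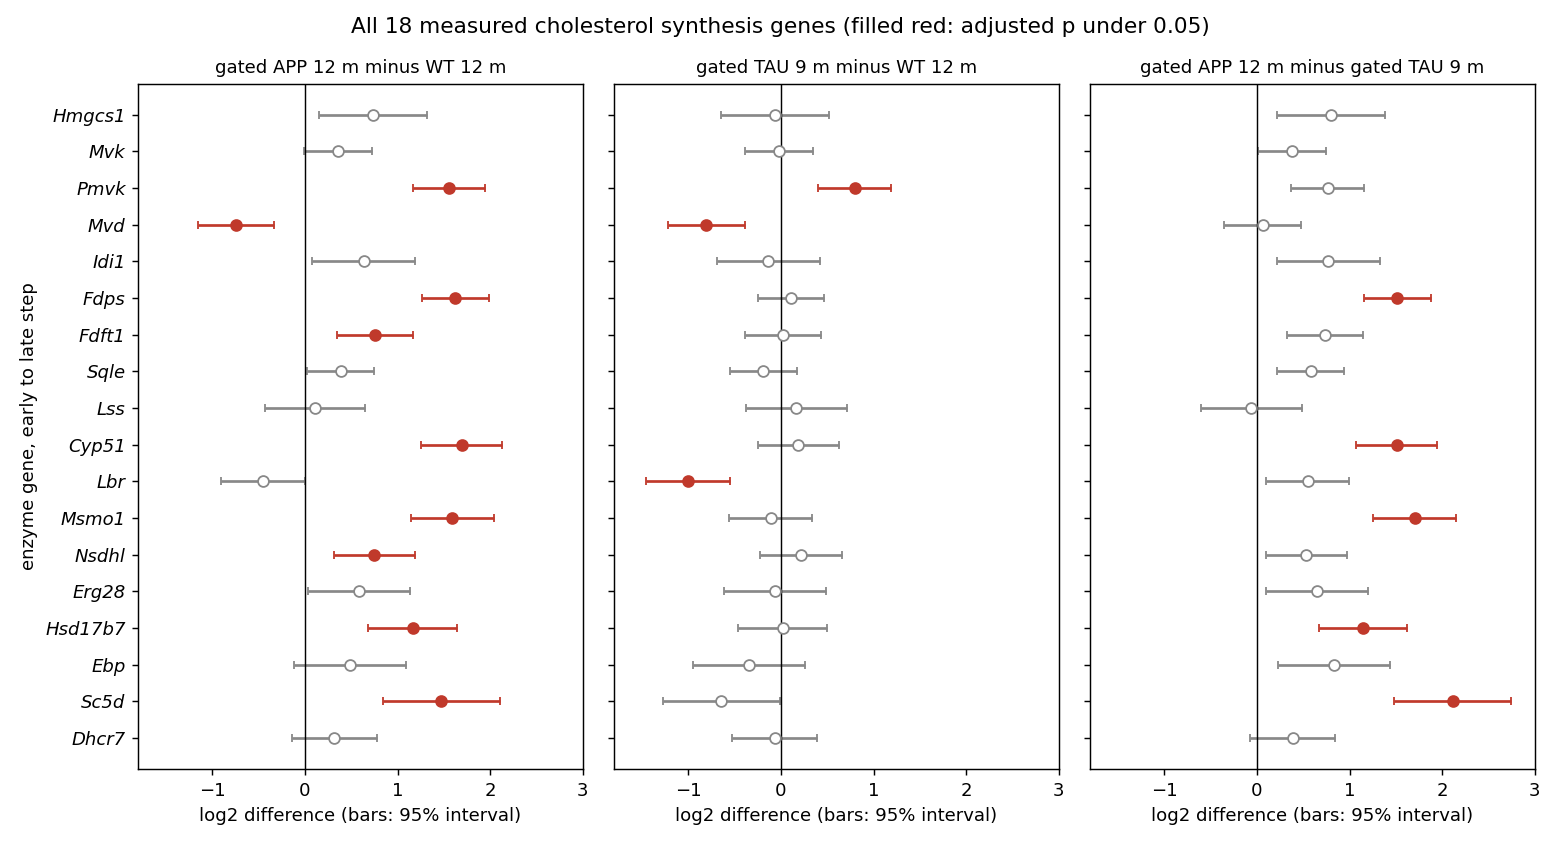
Log2 differences (x axis) of all 18 measured cholesterol synthesis genes, from early to late steps down the page, for gated APP minus aged WT, gated TAU minus aged WT and gated APP minus gated TAU. Points are the limma estimates, bars 95% intervals, and filled red points have an adjusted p under 0.05. Of these genes, 8 are called higher in gated APP than in aged WT and 1 in gated TAU, Pmvk, against 5.6% and 5.09% of all probe sets.

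Against the young mice of the same strain, 5 of the 10 enzymes were higher in gated APP (6.19% of all probe sets higher, 5.95% lower), namely Pmvk by 1.27, Fdps by 1.79, Cyp51 by 1.25, Msmo1 by 1.34 and Sc5d by 1.69, with limma adjusted p between 4.55e-07 and 0.000975. Mvd was 0.51 lower and was not called (adjusted p = 0.15). Markers of other cells moved in this comparison too, with 3 of 10 astrocyte markers lower (Aldoc, Slc1a2 and Gja1) and 1, Gfap, higher, at a list median of -0.87, and 5 of 8 border macrophage markers lower, at a median of -0.73. Their part in the enzyme differences was not tested. In gated TAU, Pmvk was 0.60 higher (adjusted p = 0.0356) and Mvd 0.72 lower (0.0175) than in young TAU, 1 of 10 in each direction, against 6.67% and 6.81% of all probe sets. The Pmvk call in gated TAU was lost when any of 5 samples was left out, at adjusted p between 0.069 and 0.126, namely young TAU replicate 1 or 4 or gated TAU replicate 1, 2 or 3. In gated TAU 2 of 10 astrocyte markers were lower than in young TAU. The Mvd call was lost without young TAU replicate 2 (0.0619) or gated TAU replicate 2 (0.0714).

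In the young mice the enzymes called in gated APP lay close together across strains. Pmvk ran from 6.86 to 7.34 in young APP, 6.73 to 7.28 in young TAU and 6.98 to 7.08 in young WT. Fdps ran from 7.08 to 7.49 in young APP, 7.15 to 7.57 in young TAU and 6.83 to 7.45 in young WT. The methyl-removing enzymes overlapped as well, with Cyp51 at 6.80 to 7.23 in young APP, 6.69 to 7.28 in young TAU and 6.66 to 7.28 in young WT, and Msmo1 at 6.94 to 7.46, 6.93 to 7.24 and 6.58 to 7.18 in the same order. Sc5d spread most widely of these, from 9.34 to 10.28 in young APP, 8.91 to 10.08 in young TAU and 8.92 to 10.84 in young WT. Mvd, lower in the gated groups, ran from 8.58 to 8.96 in young APP, 8.69 to 9.11 in young TAU and 8.65 to 9.19 in young WT.

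Before pathology, none of the 10 was called between transgenic and WT mice. Young APP minus young WT ran from -0.22 to 0.25, and young TAU minus young WT from -0.30 to 0.29, with 0% of all probe sets called by limma in either comparison and 0 of the 10 at an unadjusted p under 0.05. Aged WT minus young WT ran from -0.32 (Cyp51) to 0.42 (Idi1), again with 0 of 10 called and 0 at an unadjusted p under 0.05, and 0.036% of all probe sets called. For Sc5d the 95% interval of young APP minus young WT ran from -0.90 to 0.46, and for Fdps from -0.22 to 0.55.

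The change of APP microglia between young and gated samples was tested against the change of WT microglia between the same ages. It was larger for 5 of the 10 enzymes (2.82% of all probe sets called higher, 0.977% lower), by 1.45 for Pmvk (limma adjusted p = 0.00249), 1.46 for Fdps (0.00096), 1.57 for Cyp51 (0.00329), 1.34 for Msmo1 (0.0155) and 1.69 for Sc5d (0.033). The Msmo1 call was lost without young APP replicate 3 (0.0572), and the Sc5d call without any 1 of 8 samples, at 0.0579 to 0.108, namely replicates 1 and 2 of young WT, 2 and 3 of young APP, 2 and 4 of aged WT and 1 and 3 of gated APP. Both calls were lost without replicates 2 and 4 of aged WT together (0.0938 and 0.168) and in the fit adjusted for the Y-linked mean (0.0636 and 0.222). For TAU, none of the 10 was called in the same test (2.6% of all probe sets higher, 1.15% lower), with 1 higher and 1 lower at an unadjusted p under 0.05, Pmvk at 0.78 (adjusted p = 0.119) and Mvd at -0.79 (0.141). Pmvk was called there without aged WT replicate 3 (0.0495).

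In the order of the group means, gated APP was first and stood apart from the next group without overlap for Pmvk, Fdps, Cyp51, Msmo1 and Sc5d. How many of all probe sets share this order was not counted, so it is given as a description only. Hmgcs1, Idi1, Sqle and Lss, at background throughout, are given no order. For these 5 enzymes the groups below it overlapped with their neighbours in that order, apart from gated TAU, which was second for Pmvk and clear of the next. Mvd had the 4 ungated groups first, at means of 8.75 to 8.99, then gated APP at 8.24 and gated TAU at 8.18, and each of these overlapped with its neighbour. Within gated APP, replicate 1 was lowest for 6 of the 10 enzymes and replicate 3 highest for 5. Within gated TAU, replicate 1 was highest for 5 and replicate 4 lowest for 5.

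A further 8 genes of the pathway were also followed. In gated APP, 3 of the 8 were called higher than in aged WT, against 5.6% of all probe sets. Fdft1, the squalene synthase, averaged 9.56 in gated APP and 8.81 in aged WT, a difference of 0.75 (limma adjusted p = 0.0157). Nsdhl, which acts with Msmo1 on the methyl groups, averaged 9.49 in gated APP and 8.74 in aged WT, also a difference of 0.75 (0.026). Among the young mice, Nsdhl was already higher in all APP samples (9.02 to 9.22) than in all WT samples (8.25 to 8.76), a difference that was not called. Hsd17b7, the reductase of the same complex, was called as well (1.17, 0.00148), but its mean in gated APP, 7.91, was under the aged WT background of 8.12, so no fold is given. Ebp at 0.49, Dhcr7 at 0.32, Mvk at 0.36, Erg28 at 0.59 and Lbr at -0.46 were not called. Over all 18 genes, 8 were higher and 1 lower in gated APP than in aged WT, against 5.6% and 3.48% of all probe sets. In gated TAU 1 of the 18 was higher and 2 were lower than in aged WT, against 5.09% and 3.67%.

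The Fdft1 call was lost without gated APP replicate 4 (0.0569) and without replicates 2 and 4 of aged WT together (0.82, adjusted p = 0.059). The Nsdhl call was lost without gated APP replicate 2 (0.0714) or 3 (0.0789), or aged WT replicate 2 (0.112) or 4 (0.108), and without both of these aged WT samples it was 0.36 (adjusted p = 0.481). In gated TAU, Lbr, a nuclear membrane protein with sterol reductase activity, fell by 1.0 relative to aged WT (8.17 against 9.17, adjusted p = 0.00412). Hsd17b7 was 1.15 higher in gated APP than in gated TAU (0.0103), at least 1.06-fold, a call lost with only these 2 groups in the fit (0.124).

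Of the genes that control this pathway or handle its product, 12 of 18 were measured. In gated APP 4 of the 12 were higher and 2 lower than in aged WT (5.6% and 3.48% of all probe sets), and in gated TAU 2 were higher and 1 was lower (5.09% and 3.67%). The median difference of the 12 from aged WT was 0.145 in gated APP, with 6 above 0, and 0.21 in gated TAU, with 9 above 0. Only called genes are described below, apart from Abcg1. Srebf2, which encodes SREBP2, had log2 signals of 10.71, 11.24, 10.87 and 10.81 in gated APP, 9.41, 9.52, 9.65 and 9.61 in gated TAU and 9.07, 9.47, 9.79 and 9.59 in aged WT. Gated APP was above both other groups without overlap, by 1.43 relative to aged WT (2.69-fold, limma adjusted p = 7.48e-05) and by 1.36 relative to gated TAU (0.000861). Gated TAU differed from aged WT by 0.07 (0.891).

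Insig1, which holds the SREBP complex in the endoplasmic reticulum and is itself an SREBP target, had 9.56, 9.37, 9.49 and 9.02 in gated APP, 8.22, 8.35, 8.91 and 7.29 in gated TAU and 8.86, 8.12, 8.12 and 7.68 in aged WT. The difference of gated APP from aged WT was 1.17 (2.24-fold, limma adjusted p = 0.0222), with all 4 samples higher. The call was lost without gated APP replicate 1 (0.0661) or 3 (0.0632) or aged WT replicate 2 (0.0571) or 4 (0.0905), and without both of these aged WT samples the value was 0.87 (0.259). The difference of gated APP from gated TAU was also 1.17 and was not called (0.107).

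The other called genes of this list act on uptake, hydroxylation and export. Mylip, a ligase that marks the LDL receptor for degradation and is induced by LXR, fell by 1.05 in gated APP (0.00379) and by 1.24 in gated TAU (0.00106) relative to aged WT. Ch25h, the cholesterol hydroxylase that makes an oxysterol able to block SREBP release, rose at least 2.72-fold in gated APP (limma adjusted p = 4.46e-06) and at least 1.10-fold in gated TAU (0.000773). Npc2, which carries cholesterol out of the lysosome, rose 5.46-fold in gated APP (3.95e-07) and 4.05-fold in gated TAU (9.17e-06). These 3 genes moved in the same direction in both gated groups.

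Abca1, the LXR-induced exporter of cholesterol, had 11.64, 11.96, 11.70 and 11.40 in gated APP, 12.77, 13.13, 13.70 and 13.05 in gated TAU and 13.15, 12.60, 13.14 and 12.04 in aged WT. It fell by 1.06 in gated APP relative to aged WT (2.08-fold lower, limma adjusted p = 0.0158, lost without aged WT replicate 1 at 0.0652), and by 1.49 relative to gated TAU (0.00493). In gated TAU it was 0.43 above aged WT (0.393). Abcg1, of the same list, was not called in gated APP against aged WT, at -0.36 to -0.05 over 17 alternatives.

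**Figure D3:**
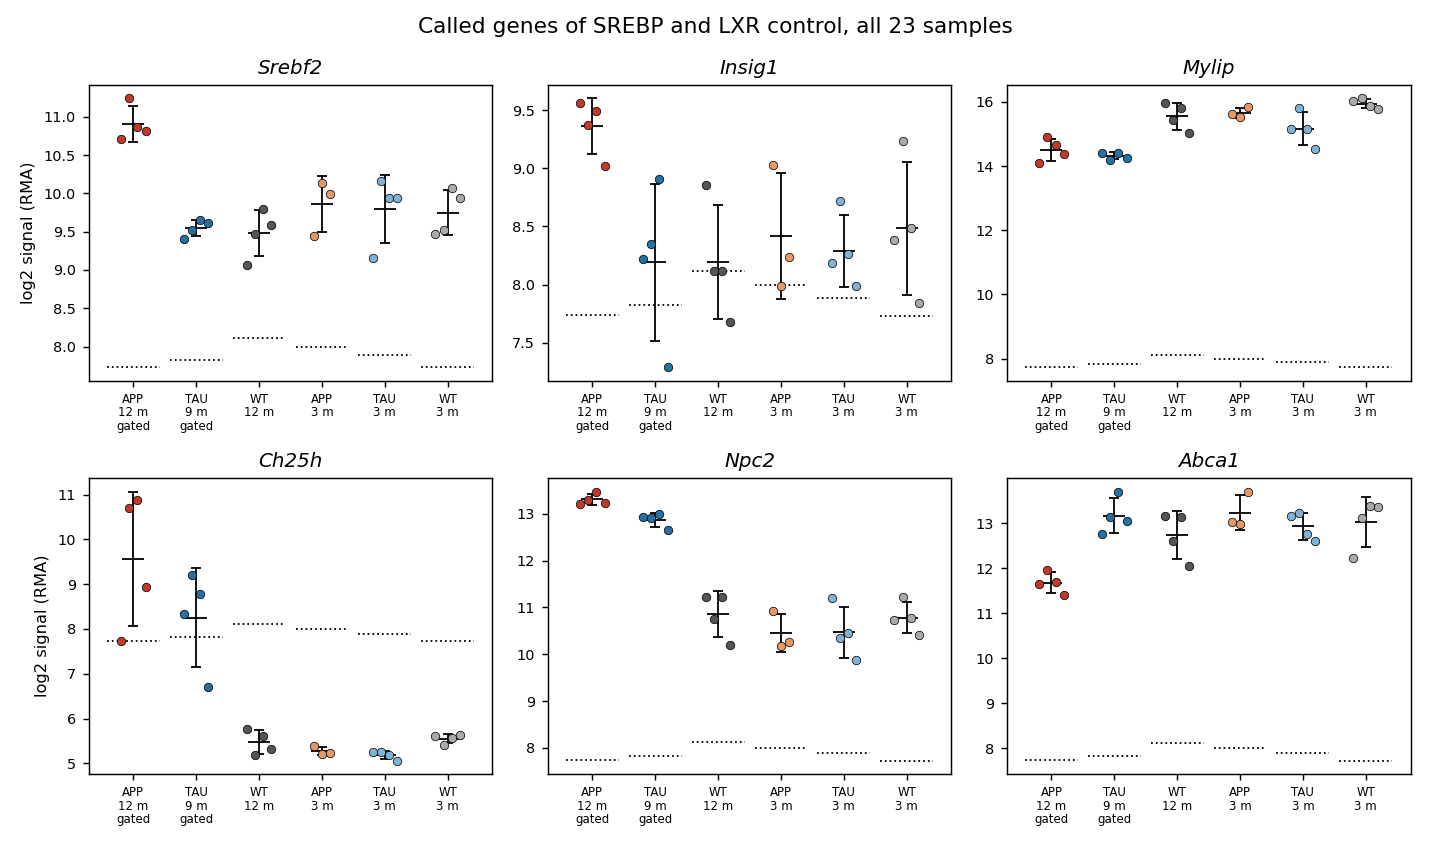
Log2 RMA signal (y axis) of 6 genes of sterol control and handling in every sample, with the groups along the x axis, means and SD as bars, and the background level as dotted lines. Srebf2 is high in gated APP alone, Npc2 and Ch25h are high and Mylip is low in both gated groups, and Abca1 is low in gated APP. The y axes differ between panels and do not start at 0.

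Markers of cells known as richer makers of cholesterol were read beside these results. Of the 10 measured oligodendrocyte lineage markers, 9 were at background in every group. None of the 10 was called by limma in gated APP (5.6% of all probe sets higher, 3.48% lower) or gated TAU (5.09%, 3.67%) against aged WT. With shares this small, few calls would be looked for among 10 markers. Their summed signal (log2) ran from 10.44 to 11.17 in gated APP, 10.14 to 10.95 in gated TAU and 10.28 to 12.48 in aged WT. Of the 10 astrocyte markers, 6 in gated APP and 7 in gated TAU and in aged WT were at background, and their summed signal ran from 12.14 to 13.25 in gated APP, 10.85 to 13.07 in gated TAU and 12.01 to 13.65 in aged WT. The astrocyte marker Gfap was higher in gated APP (7.91) than in gated TAU (5.88) and aged WT (5.48), although the mean in gated APP was under the aged WT background of 8.12, so that no fold is given. Over the 10 astrocyte markers the median difference of gated APP from aged WT was -0.25, with 2 of 10 above 0. The endothelial list was summed to 10.13 to 12.18 in gated APP, 9.93 to 10.21 in gated TAU and 10.23 to 10.79 in aged WT, with 6 of 8 members at background in each. Within it Flt1 was higher in gated APP (9.41) than in gated TAU (7.85) and aged WT (7.33), and Pecam1 was lower in gated APP (6.52) than in aged WT (7.69).

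All 5 measured monocyte markers were at background in every group. Of the 8 border macrophage markers, 0 were called higher and 1 lower in gated APP than in aged WT, at a median difference of -0.11. In gated TAU 1 was called higher and 0 lower, at a median of 0.15. Among all probe sets 5.6% were higher and 3.48% lower in gated APP, and 5.09% and 3.67% in gated TAU. Ms4a7 was higher in gated TAU (12.29) than in aged WT (8.73), and gated APP was lower than gated TAU for Ms4a7 (9.73 against 12.29) and Mrc1 (9.04 against 10.72). The summed signal of the list ran from 11.19 to 11.64 in gated APP, 12.47 to 14.60 in gated TAU and 11.26 to 11.81 in aged WT. The part of Gfap, Flt1 and Ms4a7 bearing cells in the enzyme differences was not tested.

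The genes whose group means were most like the mean profile of the 10 enzymes were sought among 7750 candidates over the 6 groups, by the root mean square distance of centred log2 means. That profile was 0.77 in gated APP, -0.20 in gated TAU, -0.13 in aged WT, -0.11 in young APP, -0.15 in young TAU and -0.18 in young WT. All genes of the pathway, control and marker lists had been left out of the candidates beforehand, so the ranking does not compare these genes with other pathway members. The nearest were Bbs2 (distance 0.0681), Tln2 (0.0763), Got2 (0.0848), Hdac9 (0.0968) and Hint3 (0.107), at 0.73 to 0.99 in gated APP. The enzymes themselves lay 0.096 (Hmgcs1) to 0.589 (Mvd) from this mean profile, and all but Hmgcs1 were farther from it than Hint3. Those called higher in gated APP than in aged WT were at 1.057 (Pmvk) to 1.435 (Fdps) in gated APP, and Mvd at -0.42. The named genes thus resemble an average that few of the enzymes follow.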

How the data were processed

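RNA (total) was labelled with a 3′ IVT Pico kit and hybridised to 1-colour arrays, per the labels' protocols. The values are log2 signals that the authors deposited as 1 table of 22203 probe sets, and RMA and Transcriptome Analysis Console are named in the submitters' processing notes. No genome build is named in the labels. Scanner-level signals were not analysed here, and the number of arrays, rather than depth, limits precision. Probe sets were named from the platform annotation (19572 with 1 symbol, 0 with several and 2631 with none). No further normalization was applied. A limma (3.58.1, R 4.3.3) fit with 1 mean per group on all 23 samples (17 residual and 5.11 prior degrees of freedom) gave 10 contrasts, each adjusted by Benjamini-Hochberg over all probe sets. The median SE was 0.226 where 2 groups were compared, or 0.244 with young APP. It was 0.332 for APP change and 0.319 for TAU change against WT change. The fit was tested on simulated data. The members, gene lists and tests were chosen with earlier results of these data known, and the named genes are all measured enzymes, the called genes of the listed pathways and markers, and the 5 genes of nearest profile. Alternatives were a replicate block, only the groups compared, array weights, a trended prior, median centring, quantile normalization, a filter on dim probe sets, omission of aged WT replicates 2 and 4, a Y-linked covariate and omission of each sample.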

Additional observations from a re-analysis of the deposited data

Results flagged for a closer look

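Among the 50 sets of 4 samples examined (10 enzymes in 5 groups), 2 held a sample far from its 3 fellows, where chance gives about 1 in 20. Hmgcs1 in aged WT replicate 3 was 6.75, against 6.17 to 6.22 in the others, and Cyp51 in young WT replicate 2 was 7.28, against 6.66 to 6.75.

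Effects that differed between the models were flagged by the test of the difference itself. Gated APP exceeded gated TAU by 1.52 for Fdps, 1.51 for Cyp51, 1.70 for Msmo1 and 2.11 for Sc5d on the log2 scale. The change of APP microglia with age and gate exceeded the change of WT microglia with age by 1.45 for Pmvk, 1.46 for Fdps, 1.57 for Cyp51, 1.34 for Msmo1 and 1.69 for Sc5d. Strain, pathology and age (12 against 9 months) differed together in the first comparison, in which both groups were Clec7a+. Strain, pathology and gate differed together in the second, in which both arms ran from 3 to 12 months. The Y-linked mean also differed there between young APP and both WT groups, without overlap.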

How the results depend on the processing

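Of 1740 alternative values over the 10 enzymes and all contrasts, 1692 kept their side of the threshold, 36 lost a call and 12 gained one. No called difference changed sign, while 119 values of 31 uncalled differences were counted as doing so. Among them were Lss in the TAU test against WT change (11 of 24) and Msmo1 and Sc5d in WT ageing (13 of 17 each). The reported WT ageing difference of Msmo1 and of Sc5d was 0, so it had no sign to change. In gated APP against aged WT, Fdps (1.56 to 1.70), Cyp51 (1.33 to 1.89), Msmo1 (1.38 to 1.76) and Pmvk (1.41 to 1.68) kept their calls under all 17 alternatives, as did Fdps, Cyp51, Msmo1 and Sc5d under all 16 in gated APP against gated TAU. The counts that moved are given over the 18 pathway genes, then over the 10 enzymes. With only the groups compared in the fit, the count lower in gated APP than aged WT was 0 and 0 against 1 and 1, the count higher in gated TAU than aged WT 0 and 0, and higher than in young TAU 0 and 0, against 1 each. Array weights left 0 and 0 lower in gated APP. Median centring and the Y-linked covariate left 0 and 0 higher in gated TAU than young TAU. Without aged WT replicates 2 and 4, 5 of 18 were higher (8 otherwise) and 0 and 0 lower in gated APP, 0 and 0 higher and 1 and 0 lower in gated TAU, and 3 and 3 changed more in APP than in WT, against 5 and 5. The Y-linked covariate also gave 3 and 3 for that test. Array weights, quantile normalization, the dim filter and the Y-linked covariate each gave 1 of 18 (Lbr) lower in the TAU test against WT change, where the count was 0. The cause of these moves was not tested, beyond fewer samples or genes where the alternative takes them out.

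Leaving out single samples gave 7 to 9 higher and 0 to 1 lower of 18, and 5 to 6 and 0 to 1 of 10, in gated APP against aged WT. Gated APP against gated TAU gave 5 to 6 and 4 to 5 higher, and against young APP 5 to 8 and 5 to 6. Gated TAU against aged WT gave 1 to 1 higher and 1 to 2 (of 10, 0 to 1) lower, and against young TAU 0 to 1 higher and 1 to 2 (0 to 1) lower. The test of APP against WT change gave 3 to 6 and 3 to 5 higher, with 3 without young APP replicate 3, and that of TAU 0 to 1 higher and 0 to 1 lower. The young comparisons and WT ageing gave 0 throughout. With background at the 90th percentile, 7 of the group means counted at background were above it, namely Pmvk in gated TAU, Lss in gated APP and gated TAU, and Fdps in gated TAU, aged WT, young TAU and young WT.

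With the replicate number as a block, the counts of called enzymes stayed 8 higher and 1 lower of 18 in gated APP against aged WT, and Pmvk was called between gated APP and gated TAU (adjusted p = 0.0439), as with the dim filter (0.0381) and without gated APP replicate 4 (0.0462). The dim filter kept 9941 probe sets, and Pmvk passed it through gated APP, where it was high, so the call under that filter is no separate support. The labels give the replicate numbers no shared source, and the correlations of same-numbered samples' deviations ran from -0.521 to 0.552, so the numbers were not taken as pairs. As a hint from the data, the second principal component was above 0 in all 6 samples numbered 1 (1.61 to 24.77) and below 0 in all 6 numbered 3 (-43.61 to -20.19).

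Calls over all probe sets moved by over 1.5 times as follows. With only the compared groups they were 1326 against 2015 (gated APP, aged WT), 1218 against 1946 (gated TAU, aged WT), 120 against 206 (gated APP, gated TAU) and 93 against 0 (young APP, young WT). Array weights gave 4079 against 2695 (gated APP, young APP), 8 against 0 (young APP, young WT), 1575 against 844 and 1460 against 832 (APP and TAU change against WT change). Without aged WT replicates 2 and 4 they were 1264, 1227 and, for TAU change, 464, and with the Y-linked covariate 447 and 502 for APP and TAU change. Without single samples they were 1643 against 2695 (young APP replicate 2), 1 against 0 (young TAU replicate 3, young comparison), 541 and 1356 against 832 (young TAU replicate 3, aged WT replicate 3), and 0 to 88 against 8 for WT ageing, whose other alternatives gave 1 to 13.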

Other observations

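Fatty acid synthesis, which shares SREBP control with sterol synthesis, was measured for 10 of 12 listed genes, and 2 were higher and 0 lower in gated APP than in aged WT, against 5.6% and 3.48% of all probe sets. Acaca, the carboxylase that makes malonyl-CoA, was 2.40 above aged WT in gated APP and 1.41 above it in gated TAU, at least 3.69-fold higher in gated APP (limma adjusted p = 8.39e-07) and at least 1.86-fold higher in gated TAU (0.00101). Fasn, the fatty acid synthase, averaged 8.64 in gated APP and 7.93 in aged WT, a difference of 0.71 and at least 1.44-fold (0.0243). That call was lost without gated APP replicate 1 (0.111) or 3 (0.0806), or aged WT replicate 2 (0.0684) or 4 (0.0683). It was also lost without both of these aged WT samples (0.199), with array weights (0.0616) and with only the compared groups in the fit (0.119).

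The isoprenoid branches that leave the pathway at farnesyl diphosphate, among them prenylation and the dolichol and ubiquinone routes, were measured for 10 of 11 listed genes. None was called by limma in gated APP (5.6% of all probe sets higher, 3.48% lower) or gated TAU (5.09%, 3.67%) against aged WT. At an unadjusted p under 0.05, 1 was higher and 0 lower in gated APP, where 4761 of the 22203 probe sets passed in either direction. In gated TAU 0 were higher and 1 lower, where 4876 probe sets passed. Differences of these 10 genes from aged WT ran from -0.36 to 0.40 in gated APP and from -0.40 to 0.28 in gated TAU.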
